A study of Mus musculus with 8 samples.

Results

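Undifferentiated spermatogonia are the germ cells of the testis that include the spermatogonial stem cells and their first progenitors. The genes described here are 10 factors known for these cells, Gfra1, Nanos2, Nanos3, Zbtb16, Lin28, Bcl6b, Etv5, Foxo1, Sall4 and Id4, where Lin28 is the array's name for the gene now called Lin28a. Every probe whose gene name on the array equals one of these 10 was taken, whatever its signal. Of the 10 names, 9 had a probe, with 14 probes in all among the 41174 probes and 27962 gene names of the array. Zbtb16 is not analysed here. Genes were tested where a probe lay well above background, as the scanner software marks it, on both arrays of at least 1 group. The 9 genes passed, among 17593 genes tested, with 13 of their 14 probes among 25629 probes tested. Nanos2 passed only through the V5 and GFP arrays, on which it was brightest, so it had to differ from the other groups, and it is counted below without lending support.

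The RNA came from testes of male mice of a C57BL/6 129SV mixed strain at postnatal day 14. In all 4 groups the cells carried Dazl, which binds RNA in the germ line, fused to the tags GFP and V5, so no group lacks the fusion. The groups were input total RNA, RNA from a mock precipitation with normal mouse IgG, RNA precipitated with an antibody against V5, and RNA precipitated with an antibody against GFP, with 2 arrays each and 8 in all. Precipitation followed lysis without UV crosslinking, and the RNA was labelled with Cy3 and hybridised to one-colour arrays. The promoter or allele behind the fusion, and whether testes were pooled, are not given in the sources used here.

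The labels limit what the groups can carry. The design text of the series speaks of precipitation for PABP1, whereas sample labels give GFP as the second antibody, and the sample labels were followed. For 2 arrays, input replicate 2 and V5 replicate 1, the description conflicts with the title on the kind of RNA, and the title was followed. Replicates are not stated to come from separate animals, so each p measures only the spread between these arrays, which may be technical. Input and IgG arrays shared one slide, and V5 and GFP arrays another. For V5 or GFP against IgG or input, the slide and the group therefore cannot be told apart, while the mock shares a slide with input and the antibodies share one with each other. Between 57.2% and 62.2% of the 43379 non-control spots lay well above background on an array, and 0 were saturated. The 2 arrays of a group differed by a median absolute log2 value of 0.159 with IgG and of 0.077 to 0.092 in the other 3 groups. The RNA is labelled as that of germ cells, and 7 of 7 tested germ cell markers lay above background on both input arrays, as did 13 of 13 tested Sertoli cell markers. Fewer cells of a type and less RNA per cell cannot be told apart in such samples.

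Spermatogonial stem cells are kept by GDNF, a growth factor from Sertoli and other somatic cells, which binds the co-receptor Gfra1 and the receptor Ret on the germ cell. Signalling from this receptor raises transcription factors such as Etv5, Bcl6b and Id4, while PI3K and Akt signalling holds Foxo1 out of the nucleus. Nanos2 and Nanos3 are RNA-binding proteins that bring target transcripts to the CCR4-NOT deadenylase, and Lin28 is an RNA-binding protein that blocks maturation of the let-7 microRNAs. Sall4 is a zinc finger transcription factor of germ cells and embryonic stem cells.

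Levels are given as the processed signal in percent of the same array's 75th percentile over non-control spots, which lay between 857 and 1115 signal units. They compare one probe between arrays and set no order between genes. Differences are log2 differences of group means ± SE from limma's moderated test, fitted over all 17593 genes and 8 arrays with Benjamini-Hochberg adjustment, and a gene is called where its adjusted p is below 0.05. Where a gene has 2 kept probes, the one with the higher mean over the 8 arrays stands for it.

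By the probe that stood for each gene, most of these transcripts were more abundant in the Dazl precipitates than in the IgG mock. With the V5 antibody 5 of the 9 genes were called higher (Lin28, Sall4, Foxo1, Bcl6b and Id4) and 1 lower (Nanos3), against 16.7% of all genes called higher, 40.3% lower and 57.0% in either direction. With the GFP antibody 7 were higher, the same 5 with Gfra1 and Nanos2, and again Nanos3 was lower, against 21.6% of all genes called higher, 52.1% lower and 73.7% in either direction. Sall4 counts here by its brighter probe, while its other probe was called lower than IgG with both antibodies. With the mean over kept probes 4 of the 9 were higher with V5 and 7 with GFP, against 16.1% and 21.0% of all genes. The median difference of the 9 genes from IgG was 0.45 for V5 and 0.82 for GFP, where that of all genes was -0.21 and -0.32. Without Nanos2 and with only probes above background on all 8 arrays the median was 0.36 and 0.74. Then 5 of 8 genes were higher with V5 and 6 with GFP, against 19.3% and 24.2% of all genes. With each antibody 1 of the 8 was lower, against 43.0% and 53.7%. Both comparisons use the same IgG arrays. Of all genes tested, 16.7% were called higher with V5, and 20.2% under quantile, 27.6% under median and 35.3% under spike-in scaling. Called lower were 40.3%, 30.9%, 8.93% and 5.21% in the same order. Of the 9 genes 5, 7, 6 and 7 were then higher and 1, 1, 1 and 0 lower. Without input replicate 2 and V5 replicate 1, the arrays whose descriptions conflict with their titles, 2 of the 6 V5 calls were left (Lin28 and Foxo1), with 1240 genes called among all in place of 10036, and all 8 GFP calls. Normexp background correction models the local background of each spot. With it 0 of the 9 genes and 0 of all genes were called with V5 (3702 at an unadjusted p below 0.05). With GFP 3 of the 9 were called, each higher, where 8.55% of all genes were called higher and 18.4% in either direction.

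The mock itself stood apart from input: 6 of the 9 genes were higher in IgG than in input and 0 lower, against 43.9% and 29.3% of all genes and 73.2% called either way. The median difference was 0.61 for the 9 genes and 0.22 for all genes. With each array scaled to its spike-in probes the count over the 9 genes became 1 higher and 5 lower, where 13.5% of all genes were higher and 62.2% lower.

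**Figure D1:**
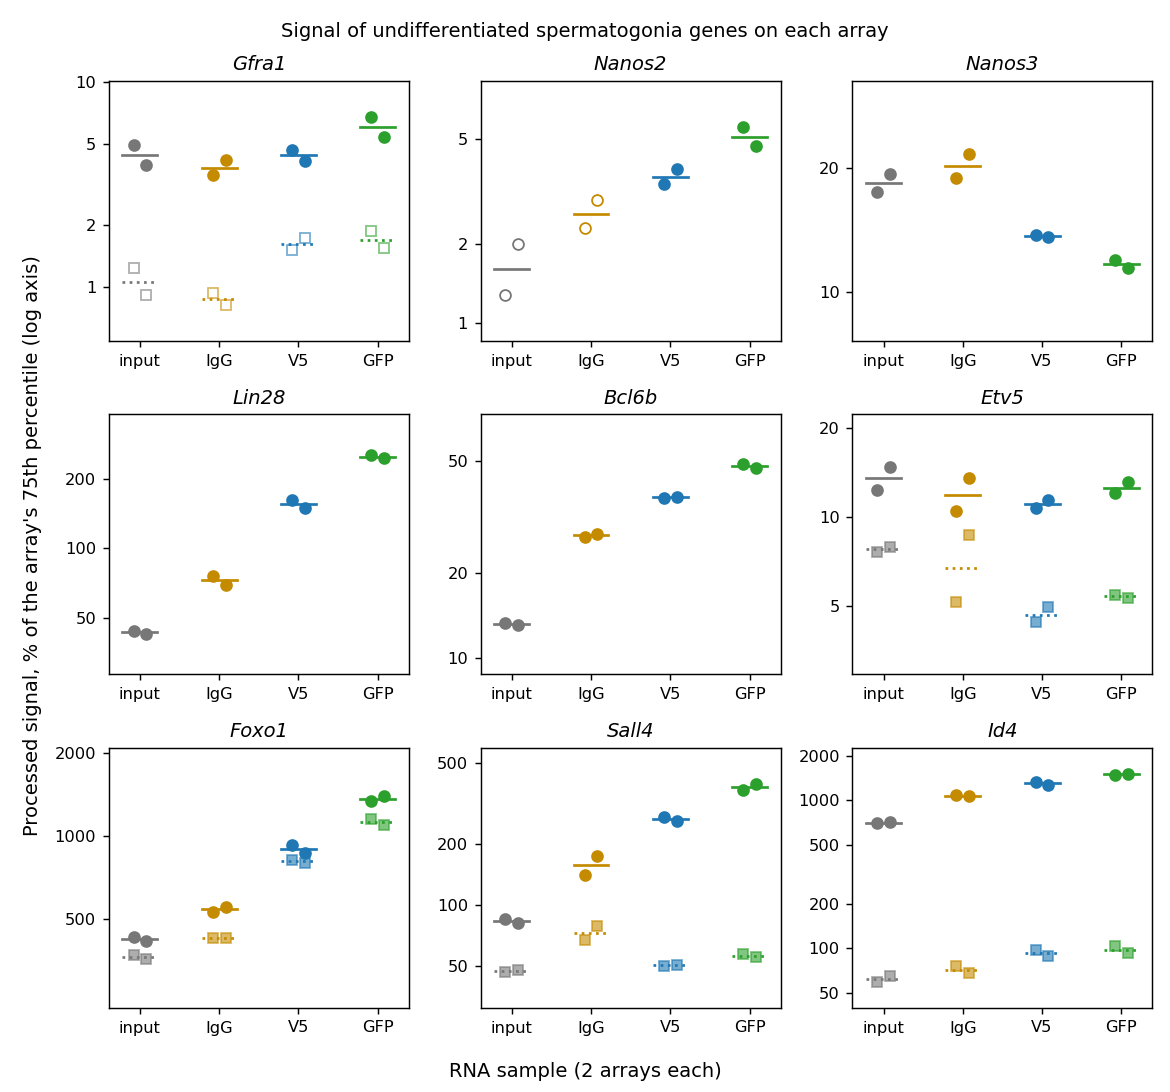
Processed signal in percent of the array's 75th percentile (log axis) for each of the 9 genes on the 2 arrays of each group, with circles for the probe that stands for the gene, squares for a second probe, lines for group means and open symbols for signals not well above background. Lin28, Foxo1, Bcl6b, Id4 and the brighter Sall4 probe rise in the order input, IgG, V5 and GFP with no overlap between groups, Nanos3 is lowest with GFP, and the second Sall4 probe is highest with IgG.

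Among the RNA-binding proteins, Lin28 had the largest difference of the 9 genes from the IgG mock, both with V5 and with GFP. Its level was 43.9% and 42.5% on the input arrays, 75.7% and 69.5% with IgG, 162% and 148% with V5, and 253% and 245% with GFP. The 4 groups did not overlap, and each precipitate lay above input. Against IgG, Lin28 was 2.14-fold higher with V5 (1.10 ± 0.078, adjusted p = 0.000774) and 3.43-fold higher with GFP (1.78 ± 0.078, adjusted p = 7.45e-05). Of all genes tested, 98.1% had a smaller value than Lin28 in the first comparison and 99.2% in the second. The mock was itself 1.68-fold above input (0.75 ± 0.078, adjusted p = 0.000165). Against input, Lin28 was 3.59-fold higher with V5 and 5.76-fold higher with GFP.

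Nanos2 had low signals throughout, 1.28% and 1.99% on the input arrays, 2.30% and 2.93% with IgG, 3.39% and 3.85% with V5, and 5.57% and 4.72% with GFP. It was not well above background on the input and IgG arrays and well above it on the 4 V5 and GFP arrays. Because the dimmer group is then only bounded, its fold changes are given as lower bounds against the higher of the array's background level and the probe's own signal. Nanos2 was at least 1.76-fold higher with GFP than with IgG (adjusted p = 0.00767), and at least 1.47-fold higher with V5 and 2.09-fold higher with GFP than in input (adjusted p = 0.00336 and 0.000595). With V5 the bound against IgG was 1.24-fold and the test did not pass (adjusted p = 0.114). The fit also called Nanos2 higher in IgG than in input (adjusted p = 0.029), where both groups were not well above background, so that no fold is given. That call ended without input replicate 1 or IgG replicate 2 (adjusted p = 0.132 and 0.149).

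Nanos3 went the other way from Nanos2 and Lin28. Its level was 17.5% and 19.3% in input, 18.8% and 21.6% with IgG, 13.7% and 13.6% with V5, and 11.9% and 11.4% with GFP, well above background on every array. Input and IgG arrays overlapped, and the V5 and GFP arrays lay below all of them. Compared with IgG it was 1.48-fold lower with V5 (-0.56 ± 0.092, adjusted p = 0.00471) and 1.73-fold lower with GFP (-0.79 ± 0.092, adjusted p = 0.000532). Relative to the median of all genes the difference was -0.36 and -0.47, and 12.5% and 13.4% of genes had a lower value. With each array scaled to its spike-in probes the difference with V5 was -0.20 and not called. IgG and input did not differ past the threshold (0.14 ± 0.092, adjusted p = 0.209).

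Gfra1, the co-receptor for GDNF, was measured by a dim probe and by another that was not well above background on any of the 8 arrays and was not tested. The measured probe stood at 4.95% and 3.93% in input, 3.52% and 4.18% with IgG, 4.66% and 4.14% with V5, and 6.76% and 5.42% with GFP. The 2 GFP arrays lay above the other 6, which overlapped. Gfra1 was 1.58-fold higher with GFP than with IgG (0.66 ± 0.16, adjusted p = 0.0102) and 1.37-fold higher than in input (0.46 ± 0.16, adjusted p = 0.0406). The first call ended without IgG replicate 1 or GFP replicate 1 (0.54 and 0.50, adjusted p = 0.0551 and 0.0529), and the second without input replicate 2 or GFP replicate 1 (0.29 and 0.30). Both also ended with the local background subtracted (0.18 and 0.17) and with normexp correction (0.23 and 0.81). The call against input further ended with spike-in scaling (0.14, adjusted p = 0.476), without the filter on dim probes (adjusted p = 0.0861) and with only those 2 groups fitted (adjusted p = 0.0683). With V5 the difference from IgG was 0.20 ± 0.16 (adjusted p = 0.333), and it was called with quantile or spike-in scaling (0.56 in each).

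Of the transcription factors, Foxo1, Bcl6b and Id4 were higher in both precipitates than in IgG, while Sall4, described below, differed between its 2 probes. Etv5 was called in no comparison under the 75th percentile scaling with all 8 arrays, its brighter probe and no replicate block. Foxo1, a forkhead factor, stood at 431% and 414% in input, 530% and 554% with IgG, 929% and 869% with V5, and 1341% and 1390% with GFP. Its groups did not overlap. Against IgG it was 1.66-fold higher with V5 (0.73 ± 0.070, adjusted p = 0.00126) and 2.52-fold higher with GFP (1.33 ± 0.070, adjusted p = 8.23e-05). Its second probe gave 0.93 ± 0.066 and 1.40 ± 0.066, both called in the fit over all probes, where 17.8% of probes were called higher with V5 and 23.6% with GFP.

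Bcl6b, a transcriptional repressor related to Bcl6, had levels of 13.3% and 13.1% in input, 26.7% and 27.6% with IgG, 37.0% and 37.2% with V5, and 48.7% and 47.0% with GFP. Arrays of a group lay close together and no groups overlapped. It was 1.37-fold higher with V5 than with IgG (0.45 ± 0.061, adjusted p = 0.00305) and 1.76-fold higher with GFP (0.82 ± 0.061, adjusted p = 0.000174). The mock was 2.06-fold above input (1.04 ± 0.061, adjusted p = 1.93e-05). With spike-in scaling that difference was 0.25, and those from IgG were 0.81 with V5 and 1.29 with GFP.

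Id4, an inhibitor of basic helix-loop-helix factors, had levels of 701% and 712% in input, 1090% and 1068% with IgG, 1340% and 1278% with V5, and 1486% and 1509% with GFP. The groups were ordered as for Bcl6b without overlap, with a smaller difference between the precipitates and the mock. Id4 was 1.21-fold higher with V5 than with IgG (0.28 ± 0.062, adjusted p = 0.0112) and 1.39-fold higher with GFP (0.47 ± 0.062, adjusted p = 0.00081). The V5 call ended without V5 replicate 1 (0.24, adjusted p = 0.0647). Its dimmer probe gave 0.37 ± 0.10 and 0.45 ± 0.10 against IgG, and both values were called over probes.

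Etv5, an ETS factor that GDNF and FGF signalling raise, had levels of 12.4% and 14.8% in input, 10.5% and 13.5% with IgG, 10.7% and 11.4% with V5, and 12.0% and 13.1% with GFP. Its IgG arrays spanned those of V5 and GFP. The difference from IgG was -0.11 ± 0.14 with V5 and 0.08 ± 0.14 with GFP (adjusted p = 0.55 and 0.631). With spike-in scaling Etv5 was called higher with GFP than with IgG (0.55, adjusted p = 0.0168), and lower than input in IgG (-0.98), V5 (-0.72) and GFP (-0.43). It was also called lower than input with V5 as the mean over its probes (-0.51) and with IgG without IgG replicate 2 (-0.37). The dimmer Etv5 probe was called in 1 of 6 comparisons, at -0.73 ± 0.22 with V5 against input (adjusted p = 0.0241), where 37.6% of all probes were called lower.

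**Figure D2:**
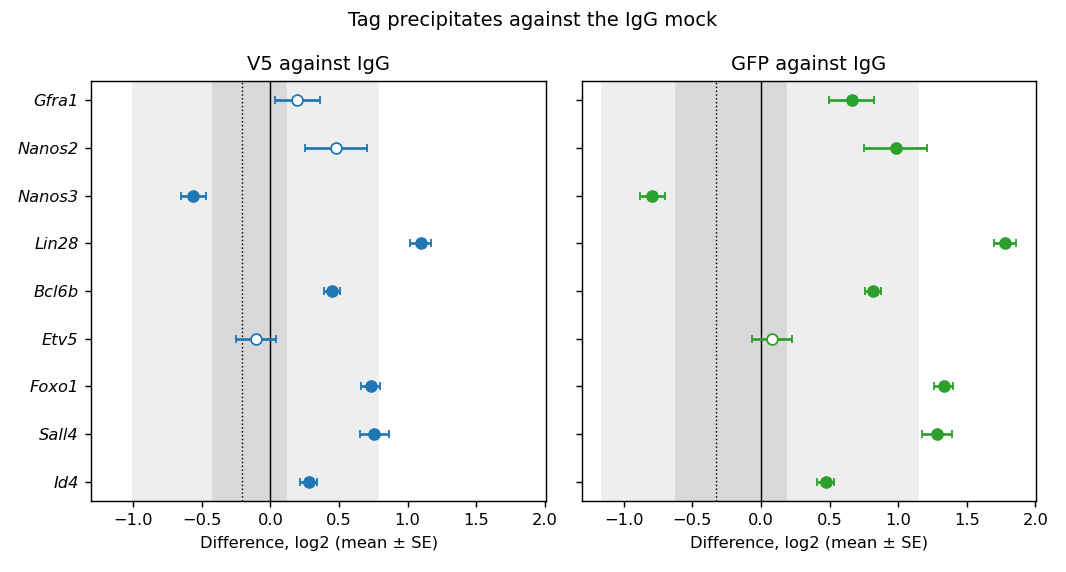
Log2 difference of each gene between V5 (left) or GFP (right) and the IgG mock, mean ± SE, with filled circles where the adjusted p is below 0.05, a dotted line at the median of all 17593 genes and shading over their middle 50% and 90%. Lin28 lies farthest to the right in both panels, Nanos3 is the one gene called lower, and Etv5 is open in both.

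Sall4 was the gene whose 2 probes disagreed. The brighter probe, designed to a cDNA clone listed under Tex20, which RefSeq gives as another name of Sall4, stood at 85.5% and 82.0% in input, 142% and 175% with IgG, 271% and 261% with V5, and 371% and 397% with GFP. The other probe, designed to the RefSeq transcript of Sall4, stood at 46.8% and 48.0%, 67.4% and 78.6%, 50.2% and 51.0%, and 57.4% and 55.5% in the same order. The first was highest with GFP, and the second was highest with IgG, with no overlap between groups in either.

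For the brighter Sall4 probe, V5 was 1.69-fold above IgG (0.76 ± 0.11, adjusted p = 0.00341) and GFP 2.44-fold above it (1.29 ± 0.11, adjusted p = 0.000236). For the other, both precipitates were below IgG in the fit over all probes, by -0.52 ± 0.088 for V5 and -0.37 ± 0.088 for GFP (adjusted p = 0.00578 and 0.00982), where 35.6% and 46.8% of all probes were called lower. With the mean of both probes in place of the brighter, Sall4 was 0.12 above IgG with V5 and was not called. Sall4 counted among the higher genes above through its brighter probe.

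The disagreement was measured within each array as the log2 difference of the brighter minus the other probe, a comparison added after the values were seen. This difference was 0.87 and 0.77 on the input arrays, 1.07 and 1.15 with IgG, 2.43 and 2.36 with V5, and 2.69 and 2.84 with GFP. Scaling by one factor per array cancels in it. It was 1.28 ± 0.084 larger with V5 than with IgG (adjusted p = 0.00228) and 1.65 ± 0.084 larger with GFP (adjusted p = 0.000298), where 12.4% and 26.2% of the 5951 genes with at least 2 kept probes were called. Between V5 and GFP it changed by -0.37 ± 0.084 (adjusted p = 0.12), and 0.672% of genes were called. Between IgG and input the change was 0.29 ± 0.084 (adjusted p = 0.032), with 45.6% of genes called.

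Foxo1, Id4 and Etv5 also had 2 kept probes each. The difference between their probes changed by -0.20, -0.09 and 0.42 from IgG to V5 and by -0.07, 0.03 and 0.40 from IgG to GFP, and none of these was called. Against input, the pair of Id4 was called in all 3 precipitates (0.40 for IgG, 0.31 for V5 and 0.42 for GFP) and that of Etv5 in V5 and GFP (0.44 and 0.42), where 45.6%, 52.9% and 56.2% of genes were called. Foxo1 was called in none of the 6 comparisons. Which part of a transcript each probe covers was not analysed here.

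**Figure D3:**
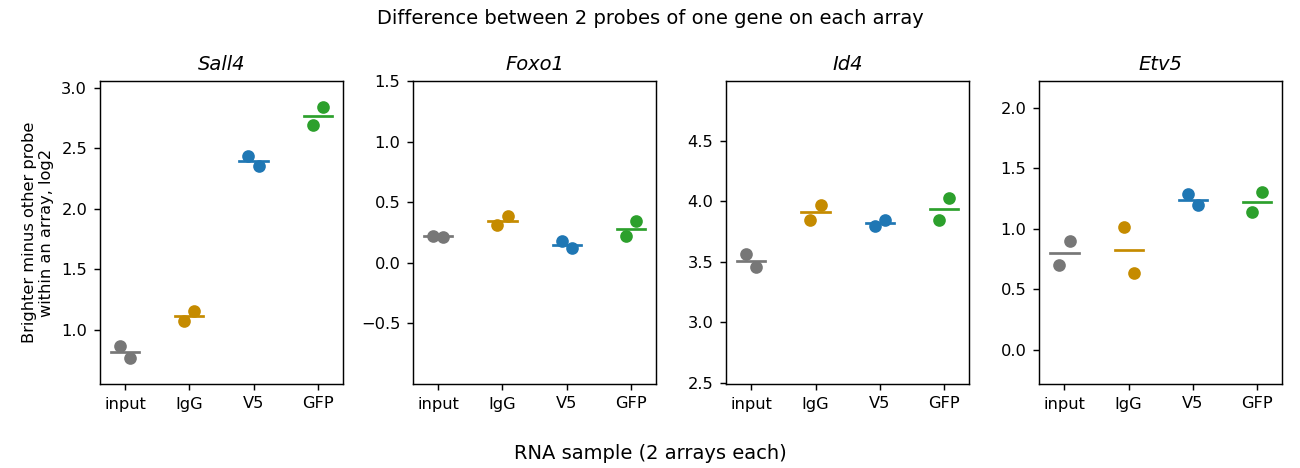
Brighter minus other probe of one gene within each array (log2), for the 4 genes with 2 kept probes. Points show arrays and lines the group means. Every panel spans an equal log2 range, centred on the values of its own gene. The Sall4 pair lies between 0.77 and 1.15 in input and IgG and between 2.36 and 2.84 in V5 and GFP, while the group means of the other pairs differ by at most 0.44.

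Against input, V5 gave 6 higher and 1 lower of the 9, against 37.7% and 35.5% of all genes and 73.2% either way, and GFP gave 7 higher and 1 lower, against 36.2% and 39.1% and 75.2% either way. The median difference was 1.09 for V5 and 1.68 for GFP, with 0.01 and -0.06 for all genes. With only probes above background on all 8 arrays, which leaves out Nanos2, 5 of 8 were higher with V5 and 6 with GFP. Of all genes 42.0% and 40.4% were then higher. With each antibody 1 of the 8 was lower, against 34.4% and 37.6% of all genes. These comparisons share the input arrays with each other and with IgG against input. With spike-in scaling both antibodies gave 6 higher and 2 lower, against 19.8% and 54.9% of all genes with V5 and 23.5% and 52.4% with GFP. Without the 2 arrays of conflicting description, 6 of 9 were called with V5, 7 with GFP and 5 with IgG, against 50.8%, 61.0% and 61.5% of all genes. Sall4 by its brighter probe was 3.18-fold and 4.58-fold above input, Bcl6b 2.81-fold and 3.63-fold, Foxo1 2.13-fold and 3.23-fold, and Id4 1.85-fold and 2.12-fold. The other Sall4 probe was 1.07-fold above input with V5 and 1.19-fold with GFP. In the fit over all probes the first was not called and the second was (adjusted p = 0.367 and 0.0377). Nanos3 was 1.34-fold lower with V5 (adjusted p = 0.00547) and 1.57-fold lower with GFP (adjusted p = 0.000702). With normexp background correction Nanos3 changed sign, to 0.22 and 0.06, and was not called, and with quantile or median scaling its V5 call ended.

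**Figure D4:**
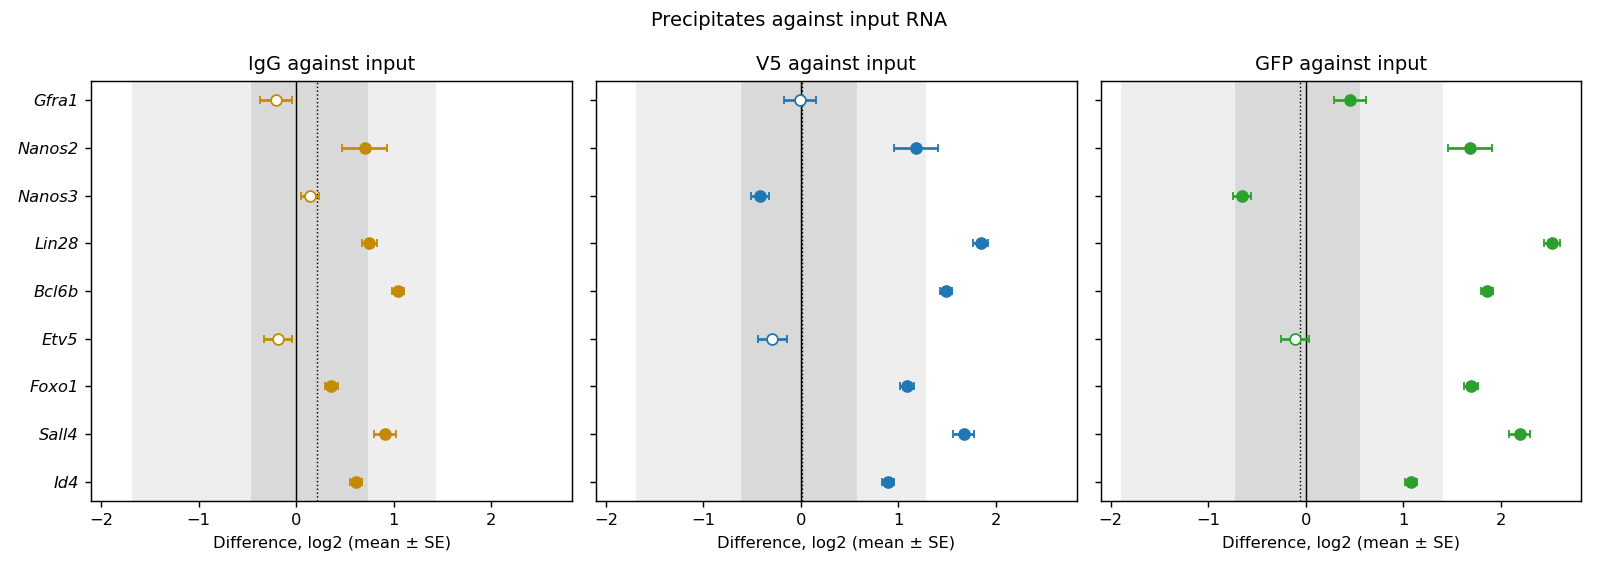
Log2 difference of each gene between IgG, V5 or GFP and input RNA, mean ± SE, with symbols, line and shading as for the comparison with IgG. The values of Lin28 are 0.75, 1.84 and 2.53 and those of Bcl6b 1.04, 1.49 and 1.86 from left to right, and Etv5 is open in each panel.

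The step from input to the IgG mock depended on how arrays were scaled. Spike-in probes, added RNA of known sequence, had a mean log2 signal above the 75th percentile of 2.94 to 2.96 in input, 3.73 to 3.76 with IgG, 3.36 to 3.40 with V5 and 3.23 to 3.30 with GFP. Scaling to them shifted the median of all genes in IgG against input from 0.22 to -0.58. Called lower in IgG than in input were then Gfra1 (-0.997, adjusted p = 0.00147), Etv5 (-0.98, adjusted p = 0.000697), Nanos3 (-0.65), Foxo1 (-0.43) and Id4 (-0.18), and Bcl6b (0.25, adjusted p = 0.017) was the one called higher. Nanos2 (-0.09), Lin28 (-0.05) and Sall4 (0.12) were not called. In V5 and GFP against IgG the same scaling shifted the median of all genes to 0.16 and 0.15, and the median of the 9 genes to 0.81 and 1.29. Such a scaling moves every gene of an array alike, so the distance of the 9 genes' median from that of all genes stayed at 0.65 with V5 and 1.14 with GFP. With only the input and IgG arrays fitted, which share a slide, 6 of the 9 genes were called higher and 0 lower under the 75th percentile scaling, against 42.9% and 28.0% of all genes. The 9 include Nanos2, which was not well above background on any of these arrays.

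Between the antibodies, 4 of the 9 genes were lower with V5 than with GFP and 0 higher, where 7.17% of all genes were lower, 6.76% higher and 13.9% called either way. They were Lin28 (-0.68 ± 0.078, adjusted p = 0.0263), Foxo1 (-0.60 ± 0.070, adjusted p = 0.0263), the brighter probe of Sall4 (-0.53 ± 0.11, adjusted p = 0.0352) and Bcl6b (-0.37 ± 0.061, adjusted p = 0.0289). Nanos3 had the one positive value, 0.23 ± 0.092 (adjusted p = 0.121). The V5 and GFP arrays did not overlap in any of the 9 genes, 5 of which were not called. With 2 arrays per group such separation is weak, and the share of all genes without overlap was not counted. All 4 calls ended when any of the 4 V5 and GFP arrays was left out, and in a fit of the V5 and GFP arrays alone (each adjusted p = 0.0583).

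The authors' deposited table holds group means of signals normalized to the median for input, V5 and GFP, without IgG. In the authors' deposited table Lin28 was 4.29-fold above input with V5 and 6.90-fold with GFP. The brighter Sall4 probe was 3.82-fold and 5.62-fold above input in the authors' deposited table, and the other Sall4 probe 1.31-fold and 1.49-fold. Nanos3 stood at 0.893 and 0.761 of its input mean in the authors' deposited table.

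Genes of the same cells and pathways, from lists chosen with earlier results of these data known, give the setting. Of 20 tested genes of undifferentiated spermatogonia outside the 10, among 28 listed, 9 were higher and 4 lower with V5 than with IgG, and 9 higher and 5 lower with GFP (median 0.02 and 0.13, with -0.21 and -0.32 for all genes). Lin28b, a paralog of Lin28, was higher by 1.10 ± 0.066 and 1.48 ± 0.066 (adjusted p = 0.000755 and 7.45e-05). Also higher were Cd9, a surface tetraspanin (0.94 and 1.36), Mcam (0.54 and 1.02) and the adhesion molecule Cdh1 (0.49 and 0.91). The 4 genes named had the smallest unadjusted p of the list in GFP against IgG, and those called lower are not named. Values in the list ran down to -0.77 with V5 and -0.80 with GFP. Of all genes, 16.7% were called higher and 40.3% lower with V5, and 21.6% and 52.1% with GFP. Of 14 tested genes of differentiating spermatogonia, 8 were higher and 1 lower with V5, and 8 higher and 4 lower with GFP (median 0.40 and 0.82). Examples are Dmrt1, a transcription factor that controls entry into meiosis (1.63 and 2.41), and Kit, the receptor that marks differentiating spermatogonia (1.21 and 1.79). The DNA methyltransferase Dnmt3b (0.67 and 1.24) and the cyclin Ccna2 (0.53 and 1.03) were higher as well. These 4 genes were named by the same rule, and values in their list ran down to -0.70 with V5 and -0.81 with GFP.

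Genes that signal from GDNF and FGF receptors were called in both directions. Of 20 tested, 7 were higher and 7 lower with V5 than with IgG, and 7 and 8 with GFP (median -0.01 and -0.07). Among all genes 16.7% were higher and 40.3% lower with V5, and 21.6% and 52.1% with GFP (median -0.21 and -0.32). The kinase Pdpk1 (0.71 and 1.31) was higher, and the kinase Src was lower (-0.49 and -0.72). Ret, the partner of Gfra1, had a probe that did not pass the filter. Of 14 tested partners of the Nanos proteins and Lin28, 7 were higher and 1 lower with V5, and 8 and 3 with GFP (median 0.18 and 0.54). They included Cnot6l of the deadenylase (0.84 and 1.23), the Pumilio protein Pum2 (0.51 and 0.80), and Dnd1 (0.27 and 0.82). Values of the 14 ran down to -0.59 with each antibody.

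Of 16 tested paralogs of the members, 2 were higher and 7 lower with V5 than with IgG, against 16.7% and 40.3% of all genes, and 2 and 8 with GFP, against 21.6% and 52.1% (median -0.17 and -0.19). The higher ones were Lin28b and Nanos1 (0.92 and 1.39), and Id3 (-0.59 and -0.81) and Sall2 (-0.34 and -0.68) were among the lower. Under spike-in scaling the paralogs gave 5 higher and 0 lower with V5 and 7 and 1 with GFP, where the 9 genes gave 7 and 0, and 8 and 1. The signalling genes then gave 10 higher and 0 lower, and 12 and 0. Under this scaling 35.3% of all genes were higher and 5.21% lower with V5, and 38.9% and 12.2% with GFP. No test set these lists against the rest of the genes.

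**Figure D5:**
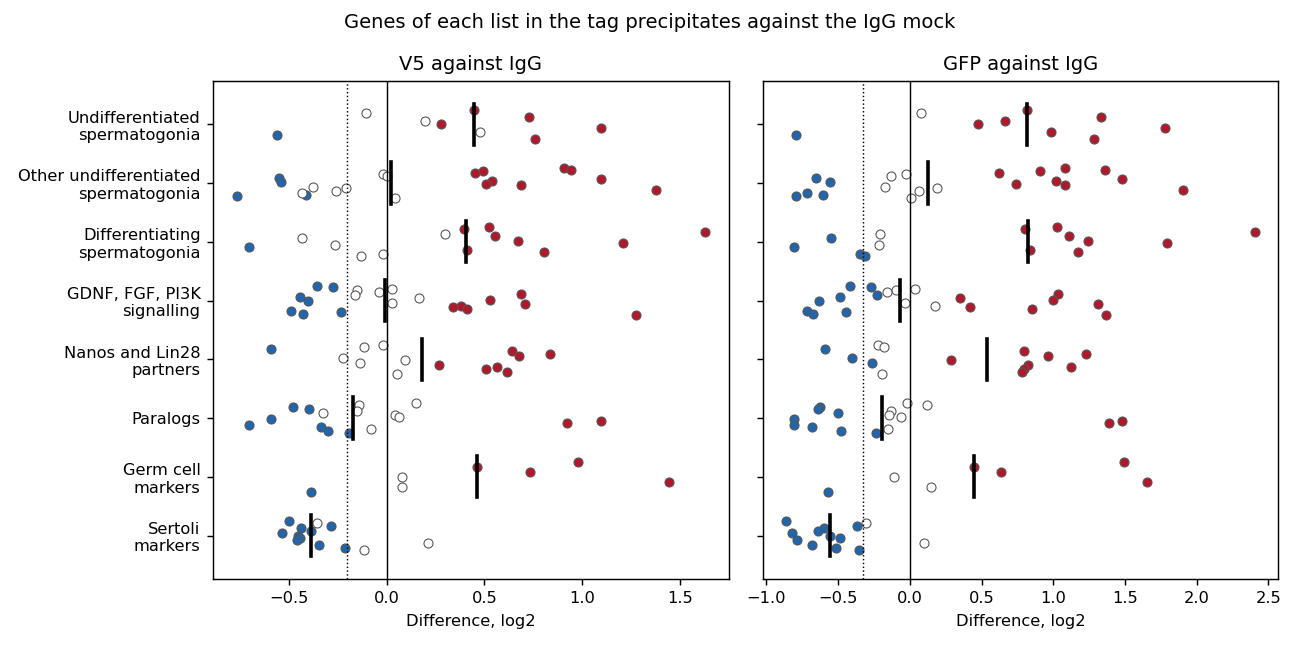
Log2 difference from the IgG mock of each tested gene of a list, with V5 (left) and GFP (right), red for genes called higher, blue for lower and open for not called, a thick bar at each list's median and a dotted line at the median of all genes. The undifferentiated spermatogonia row has its median at 0.45 and 0.82, and the Sertoli row has 10 and 11 of 13 genes called lower.

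Markers of other testis cells moved with these comparisons. Of 13 Sertoli markers 0 were higher and 10 lower with V5 than with IgG, and 0 and 11 with GFP (median -0.39 and -0.56). With spike-in scaling these counts were 1 and 0 with V5 and 0 and 3 with GFP, with medians of -0.02 and -0.08 where those of all genes were 0.16 and 0.15. Their summed level was 24997% to 25572% of the 75th percentile in input, 23691% to 23974% with IgG, 17426% to 18340% with V5 and 15052% to 16253% with GFP. All 5 tested Leydig markers and all 5 peritubular myoid markers were lower with V5 and with GFP than with IgG, as were 3 and 4 of 5 macrophage markers and 4 and 5 of 5 endothelial markers, where 40.3% and 52.1% of all genes were lower. With spike-in scaling 0 markers of these 4 lists were lower with V5, and with GFP 1 Leydig, 3 myoid, 1 macrophage and 1 endothelial marker were. Of all genes 5.21% and 12.2% were then lower. The summed level of the Leydig markers was 2645% to 2856% with IgG, 1972% to 2054% with V5 and 1694% to 1980% with GFP. For the myoid markers it was 3222% to 3745%, 2250% to 2495% and 1878% to 1970%. The summed level of the macrophage markers was 317% to 362% with IgG, 239% to 256% with V5 and 190% to 208% with GFP, and that of the endothelial markers 166% to 180%, 121% to 128% and 113% to 114%. Pecam1 of endothelial cells was not well above background on either GFP array. Germ cell markers gave 4 higher and 1 lower of 7 with each antibody, where 16.7% and 21.6% of all genes were higher. Their summed levels were 23407% to 27332% with IgG, 20713% to 21934% with V5 and 19428% to 19624% with GFP. These sums mostly follow the bright marker Tex101, called lower with GFP (log2 level 7.09, and 7.67 with IgG), while Dazl rose from 1.79 to 3.28. Against input 6 of the 7 were lower with IgG, V5 and GFP, where 29.3%, 35.5% and 39.1% of all genes were lower. Of the 9 genes, Foxo1, Etv5, Id4, Bcl6b and Gfra1 are also known outside germ cells. The part of cell mixture in their differences was not tested.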

How the data were processed

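RNA of 4 groups with 2 arrays each (input, IgG mock, V5 and GFP precipitates) was measured on one-colour Agilent arrays, and groups were taken from the sample titles. Per the file headers, Agilent Feature Extraction 9.1.3.1 gave the deposited intensity of each spot after background subtraction and detrending, with a surrogate for dim spots and arrays left unscaled. A second deposited file lists signal means by group, normalized by the authors to the median in GeneSifter according to its comment lines. Another 6 value columns in it went unused.

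Each array's processed signals were put on a log2 scale and set relative to the 75th percentile of non-control spots. Outlier spots were dropped, repeated spots averaged, and a probe was kept if 1 group or more had it well above background on both arrays. The kept probe with the highest mean stood for a gene name. Group means were fitted in R 4.3.3 by lmFit and eBayes of limma 3.58.1, with 4 residual and 2.41 prior degrees of freedom. Tests of the 6 comparisons were two-sided, with a threshold of 0.05 after Benjamini-Hochberg adjustment across the genes tested. Each adjusted p comes from limma's moderated test, whose precision is limited by the number of arrays. The fit was tested on simulated data.

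The members and lists were chosen with earlier results of these data known. All members are named with every probe, and of each other list up to 4 genes with the smallest unadjusted p in GFP against IgG, of which a part is printed; some genes that this rule names are not reported here. Dim genes are also named where the text describes a missing partner (Ret) or an undetected marker (Pecam1), which were chosen after their values were seen. Alternatives were other scalings (quantile, median, spike-in probes), other background corrections (normexp or local background with an offset of 50), other filters, the mean over probes, only the 2 groups compared, the replicate number as a block, and leaving out arrays. The comparison of 2 probes within an array was added after seeing the data. Replicate numbers did not pair the samples: the correlation of replicate differences between groups lay between -0.076 and 0.107. Probe sequences and genome positions were not analysed here.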

Additional observations from a re-analysis of the deposited data

How the results depend on the processing

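Of 804 values of single members under an alternative, 698 stayed on their side of the threshold, 677 of them with the same sign and 21 with the other sign but no call in either setting. A further 18 passed the threshold anew, 80 no longer passed, and 8 changed sign with a call in at least 1 of the settings. With normexp background correction 0 members were called in V5 against IgG, 3 in GFP against IgG, 3 in IgG against input, 5 in GFP against input and 0 in V5 against GFP. It called 0 of all genes in V5 against IgG and 0 in V5 against GFP (3702 and 804 at an unadjusted p below 0.05), 3244 in GFP against IgG, 6272 in IgG against input, and 5262 and 5712 in V5 and GFP against input. Nanos3 became 0.22 and 0.057 in V5 and GFP against input under it. V5 against GFP had 0 members called without a filter on dim probes, with only those 2 groups fitted, with the replicate block, without the 2 arrays of conflicting description, and over leaving out single arrays (0 to 0). Among all genes these settings called 4, 2, 2 and 4 in place of 2452, and leaving out single arrays 5 to 145. V5 against IgG had 2 members called without the 2 arrays of conflicting description. All genes called there numbered 10036, and 6420 with median scaling, 1240 without those 2 arrays and 6040 without V5 replicate 1. Replicate numbers share no more than a number, and the block ended the 4 calls of V5 against GFP at an adjusted p of at most 0.0526 and added that of Etv5 in V5 against input. Quantile normalization turned Gfra1 in V5 against input to 0.42. Scaling to spike-in probes turned Nanos2 to -0.093, Nanos3 to -0.65, Lin28 to -0.046, Foxo1 to -0.43 and Id4 to -0.18 in IgG against input. The higher share of calls in V5 against IgG was 29.3%, and 87.1% with spike-in, 75.5% with median and 39.5% with quantile scaling. In GFP against IgG it was 29.3%, 76.2% and 52.6%, and in IgG against input 59.96% and 17.8% with spike-in scaling. In V5 against input it was 51.4%, 26.5% and 68.9%, in GFP against input 48.1%, 31.0% and 65.9%, and in V5 against GFP 48.5%, 9.68% and 31.5%. Apart from what the construction gives, such as fewer arrays or more genes tested, the cause was not tested. A slide term could be fitted only within a slide, which is the fit of those 2 groups alone. Nanos2 was not well above background on the 4 input and IgG arrays, nor the untested Gfra1 probe on any of the 8.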

Other observations

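Over the 8 arrays, the mean of the 9 genes' centred log2 profiles correlated with the profile of Sall4 at Pearson r = 0.99, of Lin28 and Foxo1 at 0.98, and of Nanos2, Bcl6b and Id4 at 0.97 to 0.98. It correlated with Gfra1 at 0.61, with Etv5 at -0.26 and with Nanos3 at -0.82. The genes are part of the mean they are set against, and the arrays share their groups and slides, so these values only describe the profiles. Among the 5 of all 17593 genes with the highest correlation to this mean (0.998 to 0.999) were Poldip3 and the kinase Pim2. Poldip3 differed from IgG by 0.36 with V5 and 0.76 with GFP, and Pim2 by 0.51 and 1.02.

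The median distance between the arrays of a group was largest for IgG, and the Etv5, Sall4 and Nanos3 probes showed the same. By the probe that stands for each gene, it was largest in input for Gfra1 and Nanos2, in V5 for Foxo1 and Id4, and in GFP for Bcl6b. For Lin28 it was about equal in IgG and V5 (SD 0.087 in each). The 2 IgG arrays read 10.5% and 13.5% of the 75th percentile for Etv5 and 142% and 175% for the brighter Sall4 probe.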
